A study of Mus musculus with 2 samples.

Results

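Dentate granule-like spots were taken from 1 brain section as the 65 spots with the highest summed share of Prox1, Dsp and C1ql2 counts among 1500 spots with at least 8000 counts and 200 features. The section carried 4992 spot barcodes in all, and the 1435 other spots past the same depth cut served as the comparison. The tissue was labelled as normal mouse brain, fixed in formalin and embedded in paraffin (FFPE) and cut at 5 µm. The labels name no strain, genotype, age or treatment of the animal. Total RNA was copied with random primers in place and read out on an array of barcoded spots by spRandom-seq, and the labels add that the reverse transcription primer lacked the second cell barcode. There was 1 library from brain and 1 from heart (n = 1 per tissue), so no test was possible and all differences below are descriptions of 1 section. A spot is a small region that can hold several cells of different types or part of one, and spot positions were not used here. Levels are given as CPM, the counts of a feature scaled to 1000000 counts of the spot or of the summed set of spots, and intervals are 95% intervals for counting error only.

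Granule cells of the dentate gyrus form the first relay of the hippocampal circuit. Their small, densely packed cell bodies receive cortical input in the molecular layer, and their axons, the mossy fibres, release glutamate and zinc onto CA3 pyramidal cells and mossy cells. Prox1 is a homeobox factor that sets and holds granule cell identity, Dsp encodes desmoplakin, a linker of desmosomes that is known in the brain from granule cells, and C1ql2 is a secreted C1q-like protein of mossy fibre synapses. Neurons of the same lineage are born in the subgranular zone throughout life.

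By the level of other dentate granule genes, the label held for 45 of the 65 spots and not for the other 20. A list of 28 dentate granule genes without the 3 ranking genes, of which 27 had counts, summed to between 11169 and 14899.6 CPM in 45 spots, with a median of 12621. In the other 20 the same genes summed to between 737 and 1862 CPM, with a median of 1311. No member lay between these ranges, and the 20 lay within the range of the 1435 other spots, whose median was 1790.2 CPM. The 2 sets are called the 45 and the 20 spots below. They were separated at 5000 CPM after the values were seen, so their difference in dentate genes is a description. The list was chosen with earlier results of these data known, so it is not independent support for the label.

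**Figure D1:**
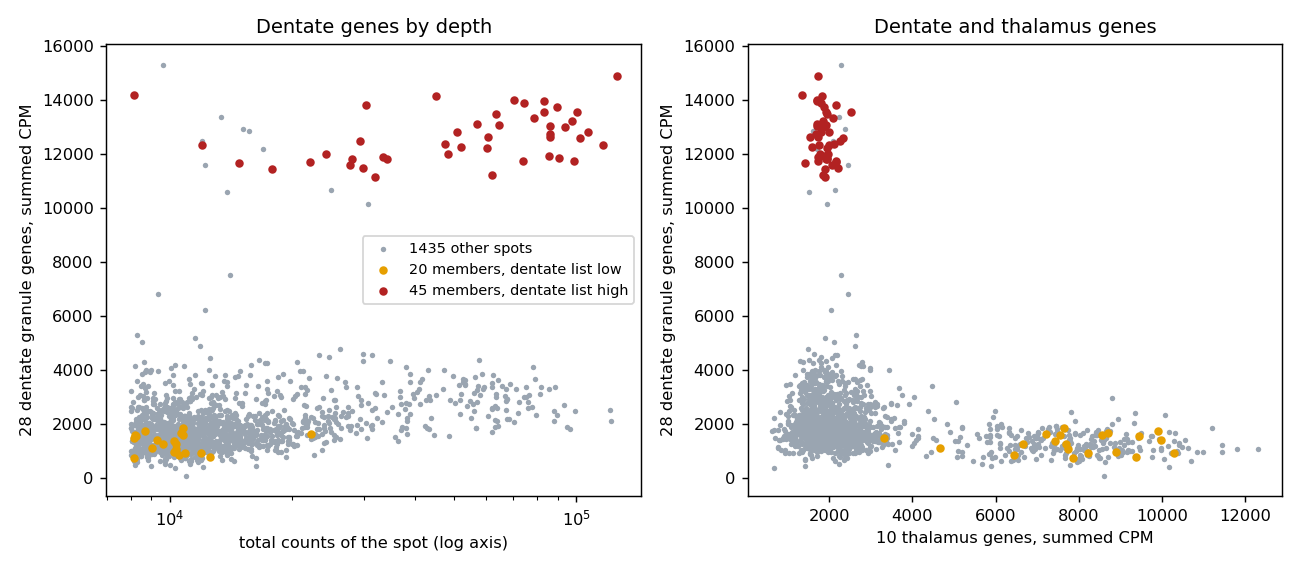
Summed CPM of 28 dentate granule genes (y axis) against the total counts of each spot (left, log axis) and against the summed CPM of 10 thalamus genes (right). Points are spots, coloured as the 45 members with high dentate gene levels, the 20 members with low levels and the 1435 other spots: the 45 lie at or above 11169 CPM on the y axis, and the 20 lie at or below 1862 CPM and to the right in the second panel.

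The 20 spots carried thalamus genes. A list of 10 thalamus genes summed to between 3316 and 10282 CPM in the 20 spots, with a median of 7808, and to between 1347 and 2515 CPM in the 45, with a median of 1886. The 2 ranges do not overlap. Across the other spots the median was 2159 CPM and the upper quartile 2974, and all 20 lay above that quartile. The 65 other spots with the highest share of the thalamus genes Tcf7l2, Prkcd, Synpo2 and Ntng1 are called the thalamus comparison spots below. Their median was 9171 CPM, a level partly set by that choice. Values of both sets are therefore given beside the joint value for many of the genes below, and a ratio given by itself is over all 65 spots.

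The values used for the ranking differed between the sets as follows. Prox1 gave 1136 counts in the 65 spots (379 CPM) and 682 in the other spots (27.9 CPM), Dsp 429 (143 CPM) and 208 (8.51 CPM), and C1ql2 35 (11.7 CPM) and 14 (0.573 CPM). Prox1 stood at 377 CPM in the 45 spots and 398 CPM in the 20. The ranking used Prox1 and so partly set both levels, and nothing is read from their likeness. Dsp had a count in 45 of the 45 spots and in 7 of the 20, and C1ql2 in 19 and in 0. Of the 20 spots, 13 entered through Prox1 counts alone, on a median of 4 counts of the 3 genes per spot (at most 8), against a median of 33 in the 45. The thalamus comparison spots had 99.9 CPM of Prox1, above the 27.9 CPM of all other spots.

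At the boundary of the ranking the values ran on without a gap. The last 10 members had between 356 and 381 CPM of the 3 genes and the first 10 spots outside between 332 and 355 CPM. The highest member reached 867 CPM and 931 of the 1435 other spots had no count of the 3 genes. Among the other spots, 10 had at least 10000 CPM of the dentate list (up to 15325) with only 128 to 354 CPM of the 3 ranking genes, and another 6 had 5000 to 10000 CPM. These 10 stood at ranks 68 to 225. They count among the other spots in every ratio below, and without them the fold of the dentate list was 5.50 in place of 5.34. The 65 spots with the highest dentate list CPM shared 45 spots with the members (69.2% of each set).

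**Figure D2:**
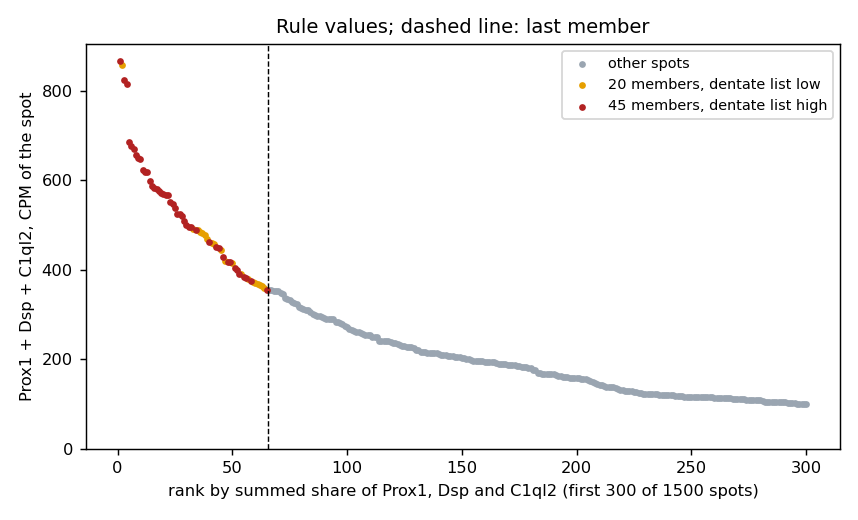
Summed CPM of Prox1, Dsp and C1ql2 in each spot (y axis) by rank (x axis, first 300 of 1500 spots), with a dashed line after the last of the 65 members. The 20 members lie mostly among the lower values of the members, with 1 near the top, and the values fall without a step at the line.

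The 45 spots were also among the deepest of the section. Their totals ran from 8169 to 125909 counts with a median of 62180, against 8139 to 22195 with a median of 10272 in the 20 and a median of 12088 in the other spots. All 35 members with at least 30000 counts were among the 45 (53.8% of the 65, against 140 or 9.76% of the other spots). Ribosomal RNA took 22.3% of the counts of the 45, 32.8% of the 20 and 31.7% of the other spots, and the mitochondrial genome 1.84, 4.30 and 4.55%. With every spot thinned at random to 8000 counts, the 45 held a median of 3029 features, the 20 2593 and the other spots 2655. Between the 35 members and the 140 other spots of at least 30000 counts the fold of the dentate list was 4.55. In spots of this kind, fewer cells of a type and less RNA per cell cannot be told apart.

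The size rule took features whose CPM averaged 30 or more over both sets. Of these 4260 features, 334 were at least 2-fold higher in the 65 spots (7.84%) and 188 at least 2-fold lower (4.41%). The median log2 ratio was 0.17 over all of them, and 2663 ratios lay above 1. When CPM were taken over counts outside ribosomal, mitochondrial and small structured RNA, each ratio was 0.851 of that given here, and over the 5505 features past the floor on that scale the median log2 ratio was -0.07, 239 were at least 2-fold higher and 366 at least 2-fold lower (39.5% of the calls were higher, against 64.0%). Of the 334 higher features 328 were protein coding, and of the 188 lower ones 169. Since the spots were chosen from the same counts, nothing is read from these shares. Ratios that lie above 1 by less than this scaling factor, such as that of Egr3 below, lie under 1 on the second scale.

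**Figure D3:**
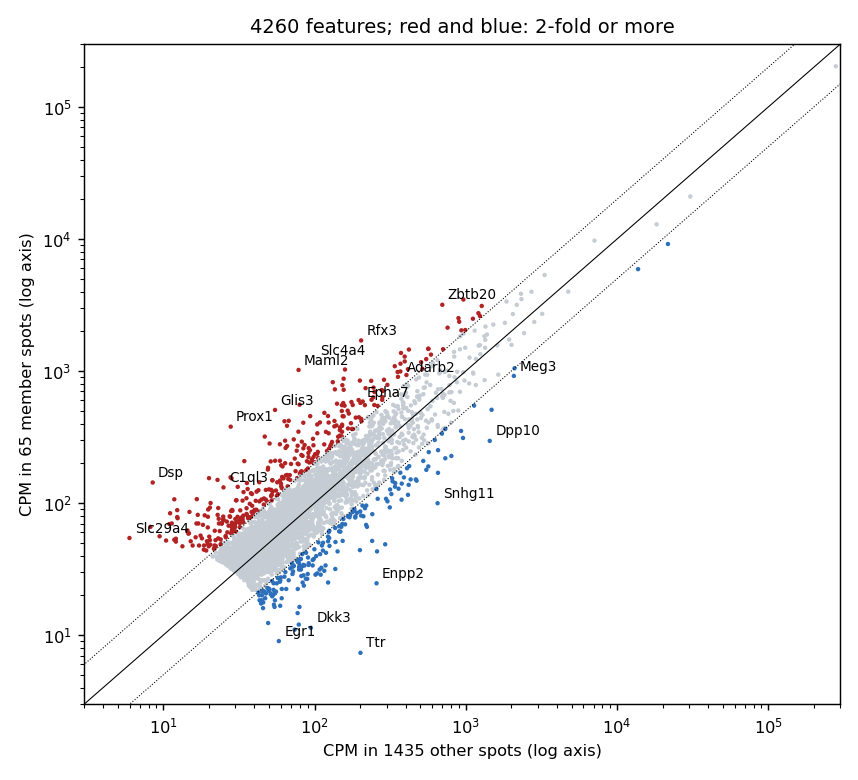
CPM of 4260 features in the 65 members (y axis) and in the 1435 other spots (x axis), both on log axes. Red and blue points are the 334 features at least 2-fold higher and the 188 at least 2-fold lower, dotted lines mark 2-fold, and genes named in the text are labelled.

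Dentate granule genes stood high as a group. The 28 genes summed to 12024 CPM in the 65 spots and 2253 CPM in the other spots, a ratio of 5.34-fold (5.27 to 5.41). Zbtb20, which is also on the list of genes that hippocampal neurons share, gave 3175 and 699 CPM of these sums. Neurod1 had no count in either set. Of the 27 with counts, 23 passed the floor of 30 CPM and all 23 were at least 2-fold higher, but the floor favours genes that are high in either set and the members were picked by granule cell genes, so nothing is read from that count beside the 7.84% of all features. Lct (lactase, 8.64-fold, 6.87 to 10.9) and Tdo2 (tryptophan dioxygenase, 2.04-fold, 0.811 to 4.52) were among those below the floor, as was Cabp7, which at 0.555-fold (0.290 to 0.972) was the 1 gene of the list with a ratio under 1. The median log2 ratio of the list was 2.53. For the 45 spots by themselves the sum was 12835 CPM (5.70-fold) and for the 20 it was 1295 CPM (0.575-fold).

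Transcription factors of the list were high in the 45 spots and low in the 20. Rfx3, a winged-helix factor known from ciliary and neuronal genes, stood at 1148 to 2566 CPM in the 45 spots, with a median of 1773. Its highest value in the 20 spots was 368 CPM, and the median of the other spots was 119.6, so the 45 and the 20 do not overlap. Over all 65 spots Rfx3 was 8.39-fold (8.07 to 8.72) higher. Zbtb20, a zinc finger repressor needed for hippocampal identity, was the most abundant factor of the list, with 2294 to 4278 CPM in the 45 spots (median 3347) against at most 609 CPM in the 20. It was 4.54-fold (4.43 to 4.66) higher than in the other spots. CA pyramidal comparison spots, the 65 other spots with the highest share of Wfs1, Fibcd1, Mpped1, Spink8, Iyd and Nptx1, held 1038 CPM. These comparison spots are a mixed set. Genes shared by hippocampal neurons summed to a median of 1566 CPM in them, 4254 in the 45 and 1227 in the other spots. Deep cortical layer genes summed to 1078 CPM against 780 in the other spots, and 1 spot reached 8881 CPM of hypothalamus genes. A contrast with them is thus not one of dentate against CA cells alone. Glis3, a Krüppel-like zinc finger factor, ran from 214 to 979 CPM in the 45 spots (median 536) and reached 97.8 CPM in the 20, a joint ratio of 9.26-fold (8.60 to 9.97).

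Other regulators followed at lower levels. Bcl11b, a zinc finger factor that granule cells share with deep cortical and striatal neurons, summed to 329 CPM in the 45 spots, 4.74 in the 20 and 97.6 in the other spots. Neurod2, a neurogenic basic helix-loop-helix factor, summed to 95.1, 4.74 and 28.5 CPM. Bhlhe22, a repressor of the same helix-loop-helix family that was not on the list, stood at 94.7 CPM against 4.74 and 12.4, a joint ratio of 7.15-fold (6.04 to 8.46). Each of these genes was thus well above the other spots in the 45. In the 20 spots each level of 4.74 CPM was 1 count, with an interval of 0.120 to 26.4 CPM. That interval holds the 12.4 CPM of Bhlhe22 in the other spots.

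Maml2, a co-activator of Notch signalling, had the highest ratio of any gene outside the ranking set. It ran from 245 to 1409.8 CPM in the 45 spots, with a median of 1128, and reached 122 CPM at most in the 20. The other spots had a median of 33.8 CPM and the joint ratio was 13.0-fold (12.3 to 13.8). With 7 counts in the 20 spots, its level there (33.2 CPM) stood beside 37.0 CPM in the thalamus comparison spots.

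**Figure D4:**
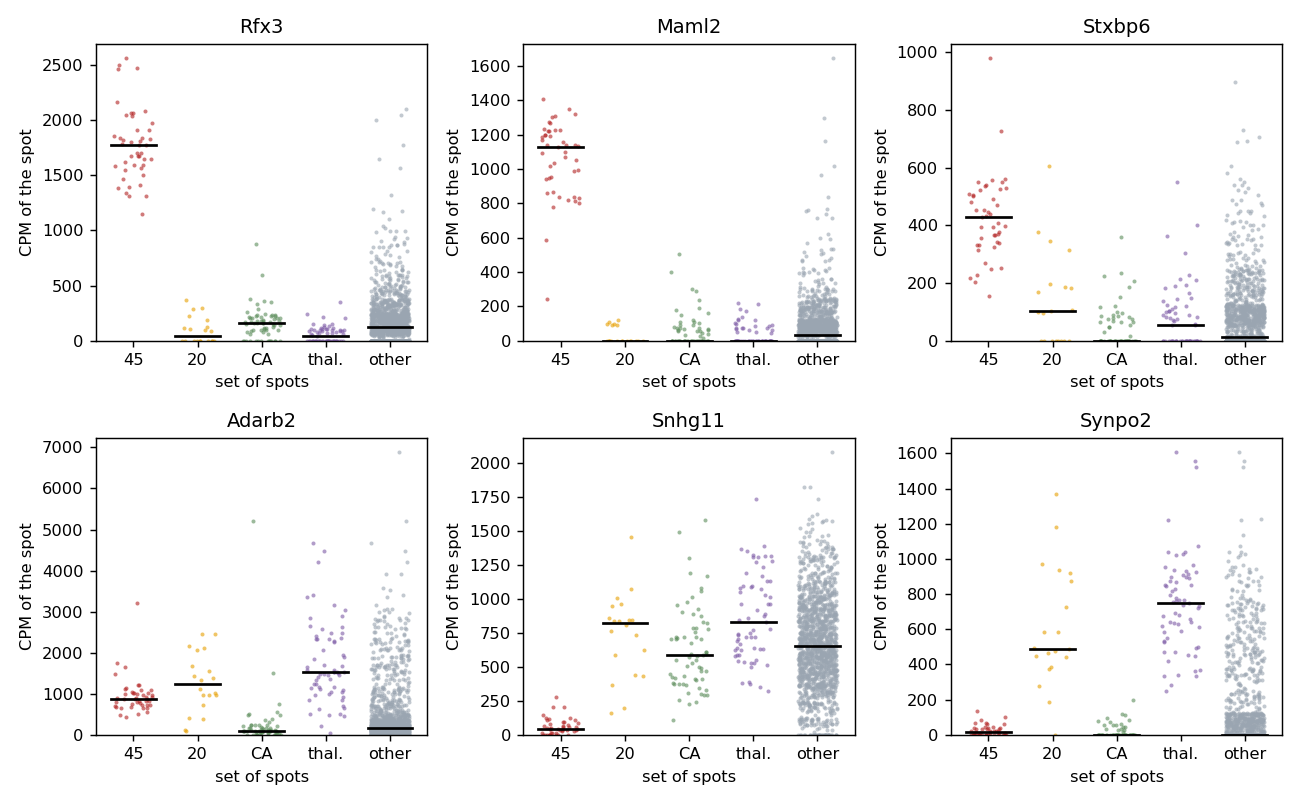
CPM per spot (y axes, linear) of Rfx3, Maml2, Stxbp6, Adarb2, Snhg11 and Synpo2 in the 45 members, the 20 members, the 65 CA pyramidal (CA) and 65 thalamus (thal.) comparison spots and all 1435 other spots. Black bars are medians: Rfx3 and Maml2 do not overlap between the 45 and the 20, Synpo2 is high in the 20 and in the thalamus comparison spots (chosen partly by it), and Adarb2 is high in both sets of members.

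The 250 bases before a start of the ranking gene Prox1 and of Glis3, Dock10 and Rfx3, which were high in the 45 spots and low in the 20, are shown so that the promoters of granule cell genes can be compared. They were taken from RefSeq on build GRCm38.p6, which is not the build of the counts, and capitals mark matches to the E-boxes CAGATG and CAGCTG, letters bound by helix-loop-helix factors such as the Neurod family, or to GTTGCC, an RFX half-site, on either strand. The Prox1 window is chr1:190170828-190171077 on the minus strand, that of Glis3 chr19:28680078-28680327 (minus), that of Dock10 chr1:80758554-80758803 (minus) and that of Rfx3 chr19:28011167-28011416 (minus).
Prox1: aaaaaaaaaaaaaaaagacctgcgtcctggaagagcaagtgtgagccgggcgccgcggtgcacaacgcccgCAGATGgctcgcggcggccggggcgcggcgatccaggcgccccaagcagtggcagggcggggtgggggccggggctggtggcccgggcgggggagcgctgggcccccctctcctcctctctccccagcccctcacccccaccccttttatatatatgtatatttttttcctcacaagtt
Glis3: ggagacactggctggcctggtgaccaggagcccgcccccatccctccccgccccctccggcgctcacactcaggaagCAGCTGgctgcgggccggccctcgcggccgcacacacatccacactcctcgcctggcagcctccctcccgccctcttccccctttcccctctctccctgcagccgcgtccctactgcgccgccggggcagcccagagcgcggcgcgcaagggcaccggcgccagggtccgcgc
Dock10: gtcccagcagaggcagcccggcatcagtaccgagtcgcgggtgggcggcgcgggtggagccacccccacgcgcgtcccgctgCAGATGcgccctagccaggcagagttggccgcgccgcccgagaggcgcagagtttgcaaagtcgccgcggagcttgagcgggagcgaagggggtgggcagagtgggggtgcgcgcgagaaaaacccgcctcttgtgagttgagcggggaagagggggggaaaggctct
Rfx3: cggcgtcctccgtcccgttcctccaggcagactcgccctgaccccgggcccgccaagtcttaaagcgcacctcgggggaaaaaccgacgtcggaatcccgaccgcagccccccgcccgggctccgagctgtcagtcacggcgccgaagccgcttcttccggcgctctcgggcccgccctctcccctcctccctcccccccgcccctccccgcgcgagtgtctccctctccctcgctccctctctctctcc
In these windows Prox1 and Dock10 hold 1 CAGATG each and Glis3 holds 1 CAGCTG, while these letters are not in the Rfx3 window, nor in those of Dsp, C1ql2 and C1ql3. Prox1 and Dock10 each have a window at another start, which holds 0 of the motifs for Prox1 and 1 CAGATG and 1 CAGCTG for Dock10. Maml2 has 2 windows, 1 with 0 of the motifs and 1 with 1 CAGATG. No share is read from the few genes looked at. Among all 32851 windows of this length, CAGATG was in 14.4%, CAGCTG in 13.0% and GTTGCC in 10.4%. The 3 motifs differ in letters and cannot lie on the same 6 bases of 1 strand. Only 246 of the 334 higher genes (73.7%) had a window, fewer than 80%, so a count over the set was void and is not given.

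Among synaptic genes of the dentate list, Stxbp6 (amisyn), a SNARE-binding protein that restrains vesicle fusion, ran from 156 to 979 CPM in the 45 spots (median 429), and the joint ratio was 6.59-fold (6.11 to 7.10). In the 20 it reached 605 CPM, so the sets overlap. Synpr (synaptoporin), a synaptic vesicle protein of mossy fibre terminals, ran from 137 to 857 CPM in the 45 spots (median 457) and to 186 in the 20, with a joint ratio of 6.22-fold (5.77 to 6.69). C1ql3, a secreted relative of C1ql2 at mossy fibre synapses, ran from 36.1 to 263 CPM (median 132), 5.26-fold (4.62 to 5.98) above the other spots. In the 45 spots C1ql3 gave 392 counts and C1ql2 35, so C1ql3 was the better measured of the pair.

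Among adhesion and guidance genes, Sema5a, a transmembrane semaphorin that limits granule cell synapse number, stood at 867 CPM in the 45 spots, 242 in the 20 and 132 in the other spots (6.23-fold over all 65). Cdh9, a cadherin of dentate to CA3 contacts, stood at 342, 14.2 and 46.8 CPM (6.81-fold). Icam5 (telencephalin), a dendritic adhesion molecule of forebrain neurons, had no count in the 20 spots and 76.0 CPM in the 45 (2.89-fold). Epha7, an ephrin receptor, reached 899 CPM in the 45 spots against 147 in the 20, 361 in the CA comparison spots and 199 in all other spots (4.25-fold, 4.05 to 4.46).

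Signalling genes of the list included Dock10, an exchange factor for small GTPases, with 366 to 1224 CPM in the 45 spots (median 568), at most 244 in the 20 and a joint ratio of 6.98-fold (6.53 to 7.46). Dgkh, a diacylglycerol kinase, and Pdzd2, a PDZ-domain protein, stood at 835 and 936 CPM in the 45 spots, with ratios of 5.12 and 5.62. Ahcyl2, which regulates inositol trisphosphate receptors and bicarbonate transport, stood at 772 CPM (5.33-fold). Plekha2, a phosphoinositide-binding adaptor, had no count in the 20 spots and was 9.03-fold (7.67 to 10.6) higher over all 65. Trpc6, a cation channel opened by diacylglycerol, had 161 CPM in the 45 and a single count in the 20 (6.56-fold, 5.78 to 7.44). Calb1 (calbindin), the calcium buffer of mature granule cells, was at 122 CPM in the 45 spots, 75.9 in the 20 and 38.0 in the other spots (3.13-fold), while Pitpnm2, a lipid transfer protein, stood at 3.54-fold and Fam163b at 2.11-fold.

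Receptors and transporters were among the largest ratios. Slc29a4, a monoamine transporter of the plasma membrane, gave 163 counts in the 45 spots and 0 in the 20, and was 9.10-fold (7.23 to 11.5) higher over all 65. Il1r1, the signalling receptor of interleukin 1, stood at 89.3 CPM in the 45 spots and 11.1 in the other spots (7.55-fold, 6.33 to 9.0). Its partner chain Il1rap, which lay outside the naming rule and was picked after its value was seen, stood at 425 CPM (4.82-fold, 4.48 to 5.17), and the cytokine gene Il16 at 75.3 CPM (6.16-fold, 5.12 to 7.39). Kcng2, a silent potassium channel subunit, was 8.03-fold (6.57 to 9.82) higher and Tspan18, a tetraspanin, 7.70-fold (6.77 to 8.76). Htr4, a serotonin receptor coupled to cyclic AMP, and Cacna1h, a low-voltage calcium channel, were also picked after their values were seen, at 5.60-fold and 5.63-fold. Htr4 had 303 CPM in the 45 and 9.49 in the 20, and Cacna1h 169 CPM and no count.

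Pyramidal cell genes of the CA fields gave mixed ratios. Of 9 CA1 genes 4 passed the floor. At least 2-fold lower were 3, Mpped1 and Man1a among them, and Epha7 was at least 2-fold higher. Of all features 4.41% were at least 2-fold lower and 7.84% at least 2-fold higher. The median log2 ratio of the CA1 genes was -1.65. Wfs1 (wolframin), a CA1 marker, was 7.92-fold lower (4.14 to 17.4) at 3.0 CPM, where the CA comparison spots, chosen partly by it, had 96.0. The CA1 list summed to a value 1.90-fold (1.83 to 1.98) higher, 944 against 496 CPM, since Epha7 supplied 846 CPM of it. The 6 CA2 genes summed to 61.7 and 63.9 CPM and none passed the floor. Of 8 CA3 genes, 5 passed it, and Elavl4 and Nectin3 were at least 2-fold lower. Nptx1, a secreted pentraxin of the CA3 list, was at 161 CPM in the 45 spots, 4.74 in the 20 and 217 in the CA comparison spots, which were chosen partly by it.

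Genes that hippocampal neurons share also gave mixed ratios. Of 8 genes 6 passed the floor: Zbtb20 and Wipf3, an actin regulator, were at least 2-fold higher (2.58-fold for Wipf3) and Kcnh7, a potassium channel, at least 2-fold lower (3.07-fold lower). Their median log2 ratio was -0.26, on a sum 2.31-fold (2.26 to 2.35) higher that Zbtb20 led. Of all features, 7.84% were at least 2-fold higher and 4.41% at least 2-fold lower. Neurod6, a helix-loop-helix factor of pyramidal cells, was 9.68-fold lower (5.38 to 19.5) with 11 counts in the 65 spots. Hpca (hippocalcin) and Cpne6 (copine 6), both calcium-binding, stood at 169 and 54.5 CPM in the 45 spots, at 9.49 and 4.74 in the 20 and at 246 and 53.6 in the CA comparison spots.

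Mossy fibre zinc and peptide genes were low in counts. The 8 genes summed to 251 CPM in the 65 spots and 338 in the other spots, and none of the 3 that passed the floor was past 2-fold. Slc30a3, the vesicular zinc transporter, had 1.80-fold (1.30 to 2.45) and the growth factor gene Bdnf 1.83-fold (1.54 to 2.18), with 57.0 CPM in the 45 spots and 14.2 in the 20. Pdyn and Penk, the dynorphin and enkephalin precursors, gave 9 and 16 counts. Cck, a peptide of interneurons and cortical cells, was 5.84-fold lower (3.67 to 9.90). The median log2 ratio of the list was -0.63.

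Genes of newborn neurons and of the hilus gave few counts. The 10 newborn neuron genes summed to 103 CPM against 81.2 CPM in the other spots, with a median log2 ratio of 0.80, and neither of the 2 past the floor was past 2-fold. Sox11, a factor of immature neurons, was at 46.3 CPM in the 45 spots and 23.7 in the 20 (1.85-fold, 1.52 to 2.24), and Dcx (doublecortin), the classical marker of newborn neurons, at 26.9 and 37.9 CPM (0.825-fold, 0.650 to 1.04). Eomes gave 7 counts, Mki67 11 and Top2a 14 in the 65 spots. Hilar genes, 6 in number, summed to 27.3 and 38.1 CPM, and none passed the floor. Calb2 (calretinin), a marker of mossy cells in the mouse, gave 21 counts.

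Immediate early genes, which neuronal activity induces, gave mixed ratios, with 5 of 11 above 1. The 11 genes summed to 88.0 CPM against 162 in the other spots and 252 in the CA comparison spots, so the sum was 1.84-fold lower (1.63 to 2.10) than in the other spots. The median log2 ratio was -0.58. Of the 2 that passed the floor, Egr1 was 6.45-fold lower (4.41 to 9.82), with 9.33 CPM in the 45 spots and 105 in the CA comparison spots, and Egr3 was at 38.3 and 34.8 CPM. Arc, a regulator of synaptic AMPA receptors, gave 10 counts and was 4.97-fold lower (2.67 to 10.4), and Btg2 stood above 1 (2.25-fold, 1.52 to 3.26) on 37 counts. The 20 spots held 4 counts of the whole list.

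Postsynaptic genes were higher in the 45 spots than in the 20, with no overlap of their sums. The 17 genes summed to 12105 to 15777 CPM in the 45 spots, to 1735 to 6868 in the 20, and to a median of 6199.6 in the other spots. All 17 passed the floor, 5 were at least 2-fold higher and none lower, at a median log2 ratio of 0.34, where 7.84% of all features were higher and their median was 0.17. The 5 were Gria1 (an AMPA receptor subunit, 2.81-fold, 2.73 to 2.89), Ppp3ca (the calcineurin catalytic subunit, 2.61-fold), Camk2b (2.50-fold), Grin2a (an NMDA receptor subunit, 2.26-fold) and Ncdn (neurochondrin, 2.08-fold). Gria1 alone ran from 1350.4 to 2767 CPM in the 45 spots, with a highest value of 605 in the 20, so the 2 sets do not overlap. In contrast to these, Homer1, a scaffold of metabotropic receptors, was at 137 CPM against 261. The CA comparison spots held 1423 CPM of Gria1 and 1627 of Ppp3ca, against 2274 and 2502 in the 45 and 758 and 904 in all other spots.

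Inhibitory receptor and potassium channel genes followed. Of 9 GABA-A receptor subunits 8 passed the floor and 3 were at least 2-fold higher (7.84% of all features were), among them Gabrb1 (2.30-fold, 2.21 to 2.40) and Gabra5 (2.23-fold, 1.96 to 2.52). The median log2 ratio of the subunits was 0.81. Gabra4 and Gabrd were higher in the 20 spots (465 and 47.4 CPM) than in the 45 (254 and 12.2), and the thalamus comparison spots had 506 and 55.5 CPM. Of 12 potassium channel genes 11 passed the floor, and Kcnj6 and Kcnj3, subunits of G-protein-gated channels, were 2.85-fold and 2.23-fold higher, whereas Kcna2, a subunit of axonal channels, was 2.18-fold lower. Kcna2 stood at 45.2 CPM in the 45 spots, 351 in the 20 and 338 in the thalamus comparison spots. Vesicle release genes summed to 3889.7 and 4240.0 CPM for 11 genes. Of these Slc17a6 was at least 2-fold lower (2.33-fold), where 4.41% of all features were. With each spot weighing the same, Slc17a6 stood at a ratio of 1.05.

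**Figure D5:**
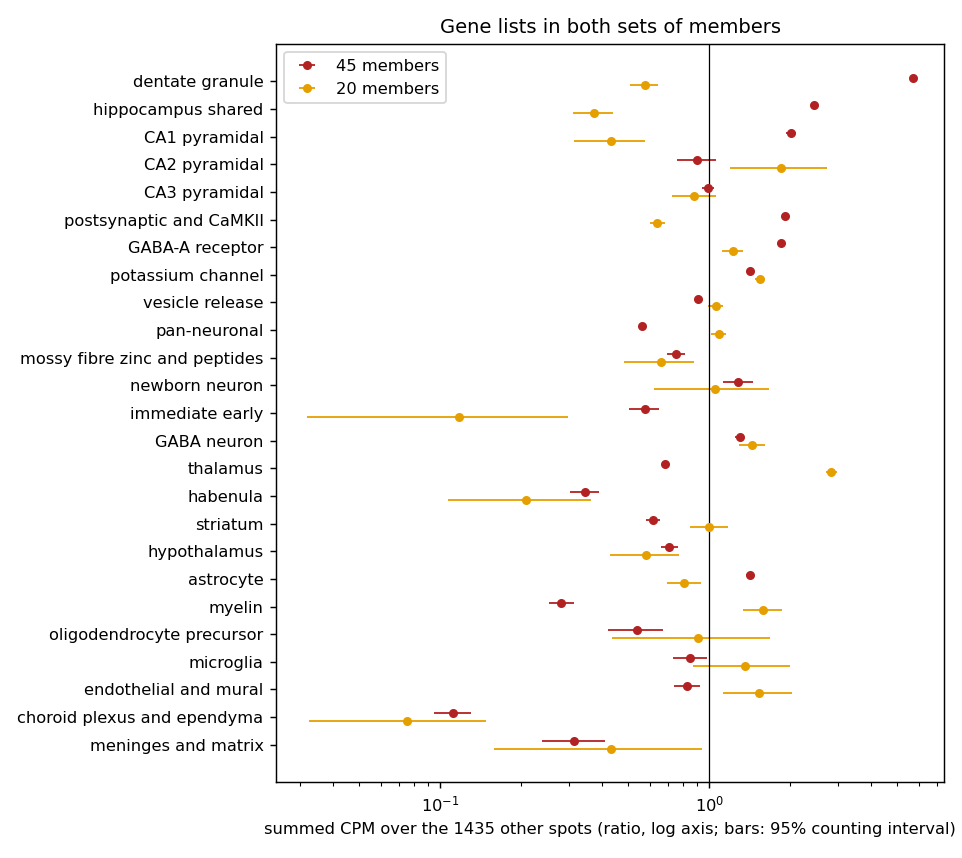
Ratio of the summed CPM of 25 gene lists to that in the 1435 other spots (x axis, log scale) for the 45 members and the 20 members, with 95% counting intervals as bars. The dentate list stands at 5.70-fold in the 45 and 0.575-fold in the 20, and the thalamus list at 0.685-fold and 2.84-fold.

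General neuronal transcripts gave ratios on both sides of 1. The 10 pan-neuronal genes summed to 2423 CPM in the 45 spots, 4681 in the 20 and 4320.0 in the other spots, and of 9 past the floor 4 were at least 2-fold lower in the 65 and none higher, where 4.41% of all features were at least 2-fold lower (median log2 ratio -0.96). Snhg11, a neuronal host transcript of small nucleolar RNAs, ran from 0 to 281 CPM in the 45 spots (median 44.0), while its median was 821 CPM in the 20 and 654 in the other spots. It was 6.53-fold lower (5.82 to 7.34) over all 65, and 12.7-fold lower in the 45 by themselves. Meg3, an imprinted long non-coding RNA, was at 803 CPM in the 45 spots, 2442 in the 20 and 2078 in the other spots (2.26-fold lower, 2.18 to 2.35). Stmn2 and Elavl4, genes of growing neurites and of neuronal RNA binding, were 3.83-fold and 3.55-fold lower. Rbfox3, which encodes the nuclear marker NeuN, went the other way at 1.65-fold (1.57 to 1.73), with 644 CPM in the 45 and 251 in the 20.

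Adarb2 was the 1 gene of the interneuron list at least 2-fold higher in the 65 spots. It encodes a brain RNA-binding relative of the editing enzymes and marks interneurons of the caudal ganglionic eminence, which also express Prox1. It ran from 443 to 3213 CPM in the 45 spots (median 872), had a median of 1229 in the 20 and 174 in the other spots, and was 2.78-fold (2.66 to 2.90) higher over all 65. The thalamus comparison spots had 1720.2 CPM, above both sets of members, and the CA comparison spots 258. Of 10 GABA neuron genes 5 passed the floor. Gad2, which makes GABA, and the neuregulin receptor Erbb4 were at least 2-fold lower (2.19-fold and 2.23-fold), where 4.41% of all features were. Slc32a1, the vesicular GABA transporter, gave 5 counts, Sst 6 and Vip 1, and the median log2 ratio was -1.14.

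Marker lists of other brain regions were also summed. Habenula genes summed to 91.7 CPM against 274, with 79.5 against 103 CPM in the median spot and up to 5229 in 1 of the other spots. Striatum genes summed to 462 against 715, hypothalamus genes to 275 against 392, cerebellar genes to 31.7 against 54.8, and deep cortical layer genes to 667 against 780.0. Upper layer genes summed to 672 against 515 CPM. Of 5 past the floor, Calb1 and Rasgrf2 were at least 2-fold higher and Rorb at least 2-fold lower. Over all features these shares were 7.84% and 4.41%. Rasgrf2, an exchange factor for Ras, stood at 404 CPM in the 45 spots and 75.9 in the 20 (2.82-fold, 2.63 to 3.01).

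Markers of glia, vessels and ventricles followed. The 10 myelin genes summed to 126 CPM in the 45 spots, 707 in the 20 and 447 in the other spots. Of the 2 past the floor, 1 was at least 2-fold lower, where 4.41% of all features were. Choroid plexus and ependymal genes were 9.19-fold lower (7.88 to 10.8) at 55.0 against 506 CPM, and meningeal and matrix genes 3.09-fold lower (2.41 to 4.04). A few of the other spots carried these sums, up to 24899 and 3199 CPM in a spot. The median spot had 41.4 CPM of choroid genes among the 65 and 78.9 among the others, and for meningeal genes 9.94 and 0 CPM. At so few counts per spot this median depends on depth. For meningeal genes it was 15.9 CPM in the deeper 45 spots and 0 in the 20, so no direction is read from it. The 6 genes of oligodendrocyte precursors summed to 29.3 against 52.1 CPM. Microglial genes summed to 77.4 against 87.7 CPM and vascular genes to 130.1 against 149. In the 20 spots the vascular list stood above the other spots, at 228 CPM (1.53-fold, 1.13 to 2.04). The microglial list was at 119 CPM there on 25 counts (1.35-fold, 0.873 to 2.00), an interval that includes 1. Of 8 microglial genes 3 had ratios above 1, among them the fractalkine receptor Cx3cr1 (1.46-fold, 1.10 to 1.91), while C1qa, and the vascular gene Cldn5, had no count in the 65 spots. Of 5 blood genes, Alas2 gave 10 counts and the haemoglobin genes 0.

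The astrocyte list was carried by Slc4a4. This sodium bicarbonate cotransporter, known best from astrocytes in brain, ran from 501 to 1485 CPM in the 45 spots (median 1074), against a median of 145 in the 20 and 116 in the other spots (6.46-fold, 6.16 to 6.78). Among the other astrocyte genes, Slc1a2, the main glutamate transporter of astrocytes, was at 393 CPM in the 45 spots and 798 in the other spots, Aqp4 at 7.89 and 22.3 and Gfap at 11.1 and 18.8. Over the 10 genes the median log2 ratio was -0.75. Of 4 past the floor 1 was at least 2-fold higher and none lower, where 7.84% of all features were higher. Desmosomal partners of Dsp did not reach its ratio. The 9 genes of desmosomes and epithelia summed to 286 against 220.2 CPM, with 6 ratios above 1 and a median log2 ratio of 0.36. Neither of the 2 past the floor, Pkp2 and Pkp4, was past 2-fold. Dsg2, a desmosomal cadherin, was below the floor at 2.90-fold (1.94 to 4.26) on 37 counts.

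The 10 lowest ratios included genes of choroid plexus and of pyramidal cells. Ttr (transthyretin) and Enpp2 (autotaxin), secreted by choroid plexus, were 27.4-fold lower (18.1 to 43.8) and 10.4-fold lower (8.28 to 13.3). Dkk3, a secreted Wnt modulator of hippocampal pyramidal cells, was 8.34-fold lower (5.95 to 12.1), and Vxn (vexin) 6.55-fold lower (4.71 to 9.38). Khdrbs3, a splicing regulator, was 6.02-fold lower (5.11 to 7.14) and Sv2b, a synaptic vesicle protein, 6.02-fold lower (5.06 to 7.22). In the CA comparison spots Dkk3 stood at 189 CPM, Vxn at 174, Khdrbs3 at 537 and Sv2b at 251, against 11.8, 11.8, 44.8 and 33.4 in the 45. Gpr26, an orphan receptor, and Gm49678 were 5.27-fold and 6.72-fold lower. Dpp10, an accessory subunit of Kv4 channels picked after its value was seen, was at 246 CPM in the 45 spots, 949 in the 20 and 1439.8 in the other spots (4.87-fold lower, 4.55 to 5.21).

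Non-coding genes with the highest ratios were Gm6999 (5.93-fold, 4.83 to 7.26), F730043M19Rik (4.11-fold, 3.46 to 4.86), Gm20754 (3.29-fold, 3.07 to 3.51), Gm26652 (2.60-fold, 2.19 to 3.07) and Lncppara (1.77-fold, 1.46 to 2.14). Gm20754 was the best measured of them, with 429 CPM in the 45 spots and 123 in the 20. Many named genes overlap a gene of the opposite strand in the GENCODE reference, such as Prox1 with Prox1os, Maml2 with Gm17571 and Rfx3 with Gm20407, and the sources used here do not say whether counting used strand, so reads of each pair cannot be told apart. Ratios also ran with gene span. Among tested protein-coding genes the median log2 ratio was -0.20 for spans under 10 kb and 0.27 for spans of at least 300 kb. Count shares were taken over all protein-coding genes with a known span, tested or not. Those of at least 300 kb took 35.8% of these counts in the 65 spots and 32.7% in the other spots. Whether span has a part in the ratios above was not tested.

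In the 20 spots, the genes highest against the 45, picked after their values were seen, included genes known from thalamic relay neurons. Slc17a6, the vesicular glutamate transporter of subcortical neurons, gave 256 CPM in the 20 spots, 7.89 in the 45 and 254 in the thalamus comparison spots. Prkcd, a protein kinase C, gave 285, 9.33 and 522 CPM, and Synpo2, an actin-binding protein, 602, 22.2 and 741. Both were used to choose the comparison spots, so their levels there were set by the choice. Lef1 and Tcf7l2, both effectors of Wnt signalling, stood at 261 and 503 CPM in the 20 and at 13.3 and 27.3 in the 45. Kcnc2, a fast potassium channel, gave 1024 CPM in the 20, 65.6 in the 45 and 1184 in the thalamus comparison spots. The 20 spots had a total of 210854 counts, so their levels rest on few counts per gene, such as 60 for Prkcd.

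Variation among the 45 spots was set against counting error. Of 3753 genes with at least 100 counts in them, the variance between spots was a median of 1.21 times that of counting error, and 147 genes (3.92%) were above 2 times. For genes near 100 counts, few counts fall in each spot, so a value near 1 does not show that the spots were alike. The ribosomal RNAs of the mitochondrial genome led, mt-Rnr2 at 28.9 times with 5579 to 16362 CPM and mt-Rnr1 at 17.5 times. Adarb2 came next at 8.75 times, followed by Grip1, a scaffold of AMPA receptors, at 7.0, and the ribosomal gene Rn18s-rs5 at 6.97. After these stood Cnr1, a cannabinoid receptor, at 5.69, Sorcs3, a sorting receptor, at 5.36 and Dlx6os1, an interneuron non-coding RNA, at 4.30. Rfx3 stood at 3.13 times.

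A single spot of the 45, with 32053 counts, led in Adarb2 at 3213 CPM. The same spot had 1092 CPM of Grip1, 437 of Cnr1, 249.6 of Dlx6os1, 780.0 of Erbb4 and 218 of Gad1, against medians of 218, 12.3, 25.4, 159.7 and 66.6 CPM in the 40 spots outside the 5 highest in Adarb2. Its Gad1 lay under the highest of those 40 (270.1 CPM), its Sorcs3 (156 CPM) stood beside their median of 153, and the interneuron peptide genes Sst, Vip and Npy had no count in it. Its Prox1 (312 CPM) and Rfx3 (1310.3 CPM) stayed within the range of the 45. In the 5 spots highest in Adarb2 together, Cnr1 summed to 125 CPM and Dlx6os1 to 134, against 29.4 and 33.9 in the other 40. The ratio of the 5 to the 40 was 1.31 (0.851 to 1.96) for Gad1, an interval that includes 1. For Reln, an extracellular protein of interneurons, it was 1.04 (0.625 to 1.65), which also includes 1. By counting error alone, the intervals lay above 1 for Gad2 at 1.796 (1.026 to 2.997), Erbb4 at 1.39 (1.09 to 1.77) and Sst at 14.6 (2.09 to 161). These intervals leave out variation between spots, which for Erbb4 was 3.53 times counting error in the 45. Of the 5 spots, the highest in Adarb2 had 780.0 CPM of Erbb4 and the rest 80.4 to 284, beside a median of 159.7 in the 40. Sst rested on 4 counts in the 5 spots and 2 in the 40. Vip had 1 and 0 counts there, and Npy 0 and 2. The 5 spots were chosen by Adarb2 after the values were seen, so the contrast is a description.

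Shares of spots with a count depend on depth, so they were taken after thinning every spot to 8000 counts. Prox1 then had a count in 100% of the 65 spots by the rule, in 18.8% of the other brain spots and in 26.7% of 2056 heart spots of at least 8000 counts. Bhlhe22 had a count in 36.9% of the 65, 5.71% of the other spots and 0.146% of the heart spots (67.7% and 12.8% in brain before thinning). C1ql3 had one in 44.6, 16.4 and 0.924% (70.8% and 26.3% in brain before thinning). For both genes the heart lay far below both brain sets. Dsp, a desmosomal gene that heart muscle needs, had a count in 90.8% of heart spots and 405 CPM there. Both sections carry the same list of 4992 barcodes, and 37 of the 65 member barcodes had at least 8000 counts in the heart section too.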

How the data were processed

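Per the labels and the submitters' processing notes, the authors aligned and counted reads with STARsolo, for which no version is named, on build mm39, and deposited raw counts per feature and spot barcode. Whether molecular tags were merged, introns counted or strand used is not stated, so intervals cover counting error only and take each count as separate. The brain library held 37300503 counts over 40276 features.

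Members were ranked as in the report, with ties in file order. Counts were summed over each set of spots and scaled to CPM. Ratio intervals are exact conditional binomial intervals at 95%. A feature was called at a mean of both sets of at least 30 CPM and a ratio of at least 2-fold. For list medians 0.5 counts were added to each gene in both sets, and to no other value. No p-value is given: with 1 library per tissue there is no replicate, and spots of 1 section are not replicates. Thinning drew 8000 counts per spot without replacement (seed 1). Biotypes, spans and overlaps came from GENCODE mouse release 21 by gene ID (35551 of 40276 found), whose build is older than that of the files. Promoter windows came from RefSeq on GRCm38.p6.

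Genes were named by a rule: the ranking genes, the 15 highest and 10 lowest ratios, the 5 highest non-coding, all members of the dentate, mossy fibre, CA, hilus, newborn neuron and immediate early lists, and of the other lists (32 in all) the 2 to 4 most abundant members and those 1.5-fold against their list. Any other gene named was chosen after its values were seen, and some genes the rule covers are not reported here. The members and lists were chosen with earlier results of these data known. The steps were run on simulated counts that carried counting error only, so variation between spots was not covered. In the check of the ranking, planted spots stood above all others by design, so their recovery was set in advance. Python 3.11.15, numpy 2.4.6, scipy 1.17.1, pandas 2.3.3 and matplotlib 3.10.9 were used.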

Additional observations from a re-analysis of the deposited data

How the results depend on the processing

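The fold of the dentate list, 5.34 as reported, stayed above 4 under each setting tried: 4.54 outside ribosomal, mitochondrial and small structured RNA, 4.55 with each spot weighing the same, 5.09 and 4.94 at depth cuts of 4000 and 12000 counts, 4.99 and 4.53 for the top 33 and 130 spots, 4.63 and 4.95 when ranked without Prox1 or Dsp, 5.58 for members with 2 of the 3 genes, and 4.68 and 9.83 against the CA and thalamus comparison spots. Ranking without C1ql2 gave the same spots. Of 3 settings added after the data were seen, the 45 spots gave 5.70, leaving out the 10 other spots 5.50 and spots of at least 30000 counts 4.55. The 334 higher and 188 lower features became 239 and 366 outside ribosomal RNA, 239 and 107 with equal weights, 232 and 104 for the top 130 spots, 736 and 446 against the thalamus comparison spots, 518 and 352 at a floor of 10 CPM and 175 and 78 at 100 CPM, and the other settings stayed within 1.5 times of both counts.

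Of 109 called genes under the naming rule, without those not reported here, ratios crossed 1 in 21 of 1633 gene settings. Slc17a6 stood at 1.05 with equal weights, 1.16 for the top 130 spots and 2.66 against the CA comparison spots. Against the thalamus comparison spots the ratio of Adarb2 was 0.572 and ratios under 1 turned to 3.0 for Gad2, 1.53 for Erbb4, 1.16 for Nectin3, 2.26 for Mpped1, 4.38 for Hs3st4, 1.53 for Nwd2, 1.51 for Atp2b4, 1.21 for Nrg1, 1.01 for Htr2c, 1.5 for Scube1, 1.30 for Kcnq5, 1.43 for Pdzrn3, 5.24 for Pde1a, 2.38 for Gpr26, 2.43 for Vxn, 1.78 for Gm49678 and 1.53 for Dkk3. In these cases the cause was not tested, other than that the comparison spots replaced all other spots. No paired analysis was possible because each tissue has 1 library. Spot depth limits genes of few counts, such as C1ql2 and Tdo2, and all values of the 20 spots.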

Other observations

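Brain barcodes with under 500 counts, 912 in number, held 156957 counts in all. Prox1 gave 4 of them and Dsp and C1ql2 gave 0, and the 28 dentate granule genes stood at 2376 CPM, beside 2253 CPM in the 1435 other spots.

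Some genes that were high in the 45 spots also had counts in the heart section, the other library. Maml2 stood at 154 CPM over the heart library, Stxbp6 at 57.3, Rfx3 at 45.9 and Synpr at 32.2, whereas C1ql3 stood at 1.30 and C1ql2 at 0.268 on 12 counts. The heart values were not compared with brain beyond this, since there is 1 library of each.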
